A study of Mus musculus with 8 samples.

Results

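Serum response factor (SRF), its cofactors MRTFA and MRTFB, and the actin-cytoskeleton genes they are known to control were followed as 1 set in mouse megakaryocytes, the bone marrow cells that make platelets. The set was a list of 35 named genes, matched to the count table by gene identifier: 3 regulators, 3 actins, 5 crosslinkers and bundlers, 5 tropomyosins and caldesmon, 5 calponins and transgelins, 10 adhesion and LIM-domain adaptors, and 4 proteins of filament end capping and disassembly. All 35 had a row among the 27679 genes of the table, and 32 had enough reads to be tested. Cnn1, Tagln and Nexn did not.

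The study compared megakaryocytes grown in a soft gel with megakaryocytes grown in liquid. All 8 libraries came from wild-type C57BL/6 bone marrow, without any genetic change. Lineage-negative progenitors were kept for 3 days, 4 cultures in a hydrogel of 2% methylcellulose, whose stiffness the labels give as 30 to 60 Pa (Young modulus), and 4 in liquid medium, and large mature cells were then enriched on a 2 to 4% albumin gradient. The design describes the 4 cultures of each kind as independent, and the age of the mice is not given in the sources used here.

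MRTF proteins bind monomeric actin and are held in the cytoplasm by it. When monomers are used up by filament assembly, MRTF enters the nucleus, joins SRF and switches on genes for actin, actin-binding proteins and adhesion proteins, and SRF itself. SRF can instead pair with ternary complex factors (TCF) at immediate early genes. In megakaryocytes, SRF and MRTF are known to be needed for normal maturation, proplatelet formation and platelet number.

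SRF binds the CArG box, a short sequence with C bases at one end, a run of A or T bases, and G bases at the other end. The RefSeq promoter windows of build GRCm38.p6 (250 bases before to 50 after each gene start) were searched for it. Its pattern reads the same on both strands, so 1 pass covers both, and no other motif was searched. Of the 30 members with a window, 8 held an exact CArG box (26.7%), against 488 of 27025 genes with a window (1.81%). The box is a match of letters only, and binding was not measured. The windows of Srf and of 6 targets described later are printed because they hold it. Capitals mark the CArG box, and each run of 120 bases is written 5′ to 3′ on the strand of the gene. The Srf run (chr17:46556163-46556282, minus strand) holds 2 boxes, which begin 82 and 62 bases before the gene start. In the Actg1 run (chr11:120348496-120348615, minus strand) the box begins 90 bases before the start, in the Cnn2 run (chr10:79988480-79988599, plus strand) 56 bases before it, and in the Fhl1 run (chrX:56779563-56779682, plus strand) 102 bases before it. The Lima1 box (chr15:99820150-99820269, minus strand) begins 47 bases before the start, the Filip1l box (chr16:57549122-57549241, plus strand) 62 bases before it, and the Vcl box (chr14:20929148-20929267, plus strand) 227 bases before it.
Srf: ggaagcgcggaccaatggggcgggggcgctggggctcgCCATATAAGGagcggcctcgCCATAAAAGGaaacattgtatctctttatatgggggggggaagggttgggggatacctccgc
Actg1: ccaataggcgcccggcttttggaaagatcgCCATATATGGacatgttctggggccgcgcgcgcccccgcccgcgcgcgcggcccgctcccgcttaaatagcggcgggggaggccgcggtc
Cnn2: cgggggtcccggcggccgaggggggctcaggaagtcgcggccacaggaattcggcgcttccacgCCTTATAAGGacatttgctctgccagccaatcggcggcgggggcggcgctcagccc
Fhl1: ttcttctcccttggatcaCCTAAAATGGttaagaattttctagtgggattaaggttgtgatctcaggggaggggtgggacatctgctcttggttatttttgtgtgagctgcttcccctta
Lima1: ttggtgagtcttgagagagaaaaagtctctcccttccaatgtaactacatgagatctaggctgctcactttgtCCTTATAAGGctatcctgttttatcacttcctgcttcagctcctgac
Filip1l: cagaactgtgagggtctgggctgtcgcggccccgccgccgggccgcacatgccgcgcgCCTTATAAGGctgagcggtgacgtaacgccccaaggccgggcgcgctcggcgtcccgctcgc
Vcl: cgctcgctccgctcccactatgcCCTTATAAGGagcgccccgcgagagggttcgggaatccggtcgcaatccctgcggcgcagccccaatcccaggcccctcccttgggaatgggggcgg

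The eighth member with a box, Fhl2, has one in each of 2 windows. Fhl1 and Filip1l also have 2 windows each, and in both genes only the window of the printed run holds an exact box. Cnn2, Lima1, Filip1l and Vcl carry the same 10 letters, while those of Actg1 and Fhl1 differ from them and from each other.

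Across the set, more members fell than rose in the gel. Of the 32 tested, 9 were lower in hydrogel (Actg1, Fscn1, Tpm2, Tpm3, Cald1, Cnn2, Fhl1, Tgfb1i1 and Dstn), 4 were higher (Mrtfb, Lima1, Pdlim5 and Filip1l), and 19 did not pass an adjusted p of 0.05 (edgeR quasi-likelihood test, adjusted over all 13845 genes tested). The 13 called members are 40.6% of those tested, and 29.3% of all genes tested were called. By direction, 28.1% of the members were lower against 14.1% of all genes, and 12.5% were higher against 15.1% of all genes. The median log2 change, hydrogel minus liquid, was -0.21 over the members and -0.01 over all genes, with 26 of 32 members below 0 and 51.4% of all genes below 0. The 4 hydrogel libraries lay wholly below the 4 liquid libraries in 6 members and wholly above them in 3, and 28.4% of all genes had such separate groups. Over all genes 2096 were higher and 1956 lower, so that 51.7% of calls were higher; with upper-quartile scaling these were 1755 and 2492, or 41.3%, and the members then had 3 higher and 11 lower, in a fit that called 30.7% of all genes.

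**Figure D1:**
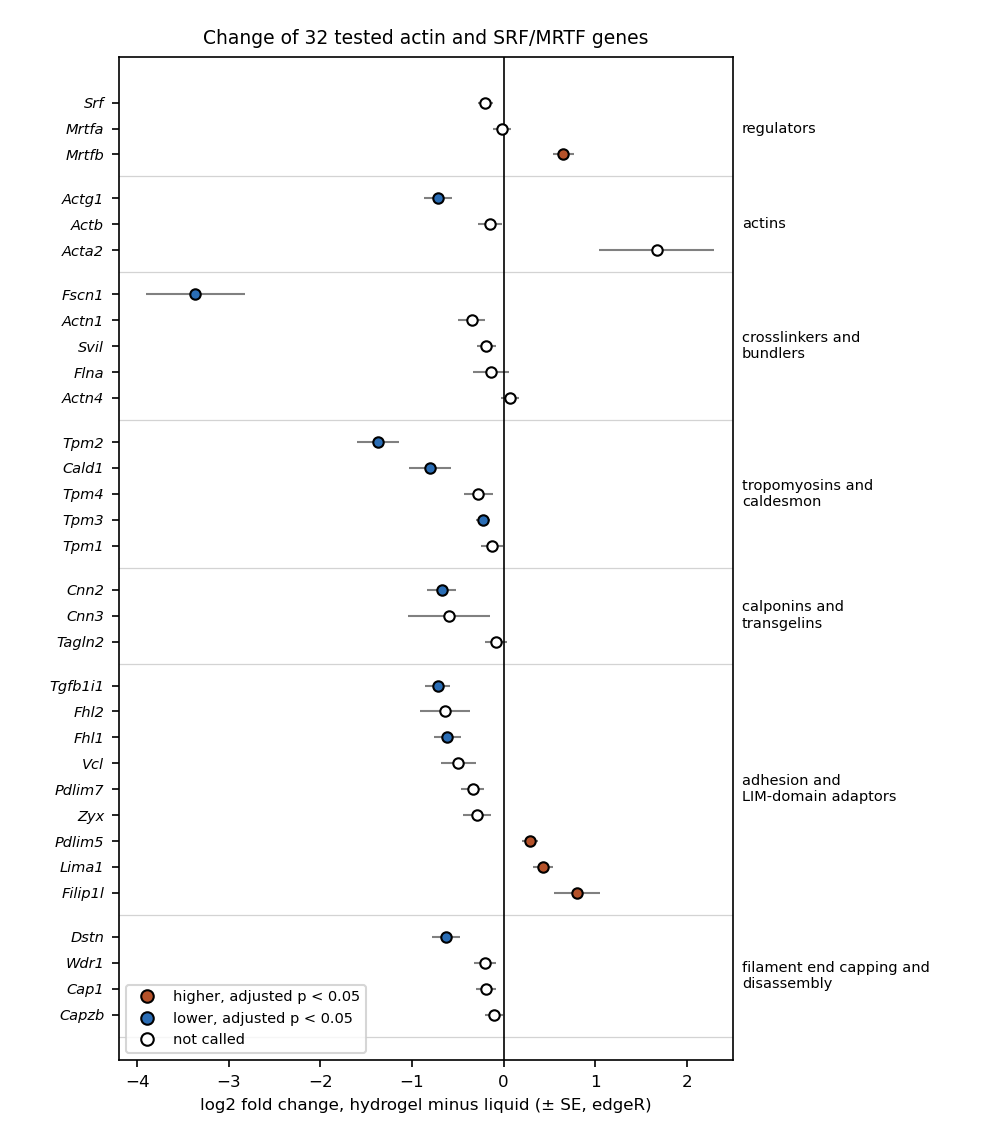
Each point is the log2 fold change of 1 of the 32 tested genes, hydrogel minus liquid, with its standard error as the bar, grouped by role. Orange points are the 4 genes called higher, blue points the 9 called lower and white points the 19 not called; all 5 tropomyosin and caldesmon genes lie below 0.

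Hydrogel 1 and liquid 2 stood apart from their groups, and the members moved with them. A macrophage score, the mean centred log2 CPM (counts scaled to library size, CPM, with a prior count of 2) of 18 macrophage marker genes, was 0.44 in hydrogel 1 and 1.36 to 1.47 in the other 3 hydrogel libraries. In liquid 2 the score was -0.26, and it was -1.75 to -1.11 in the other 3 liquid libraries. Both were thus the libraries of their groups nearest to the other group in this score. The summed level of those 18 markers was 4314 to 9325 CPM in hydrogel and 1152 to 2479 CPM in liquid, and 15 of them were called higher and 0 lower. Of 16 megakaryocyte markers, 10 were called lower in hydrogel and 0 higher, with a median log2 change of -0.56; their summed level was 28510 to 41380 CPM in hydrogel and 34310 to 55970 CPM in liquid. In these bulk samples, fewer megakaryocytes and less RNA of a gene per megakaryocyte cannot be told apart. Hydrogel 1 was the highest hydrogel library in 23 of 32 members (31.8% of all genes), and liquid 2 the lowest liquid library in 22 (30.3% of all genes). Without both, 20 members were lower and 5 higher, in a comparison that called 40.6% of all genes, and without liquid 2 alone, where 35.4% of all genes were called, 18 were lower and 3 higher, the lower ones then including Srf, Actn1, Tpm4, Vcl, Zyx, Fhl2, Pdlim7, Wdr1 and Cap1. With the macrophage score as a covariate, which shares 84.3% of its variance with culture, 1 member was lower (Fscn1) and 0 were higher, the median of the members was 0.29, and 3.06% of all genes were called. How far the makeup of the cells accounts for the changes of the members was not tested further.

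**Figure D2:**
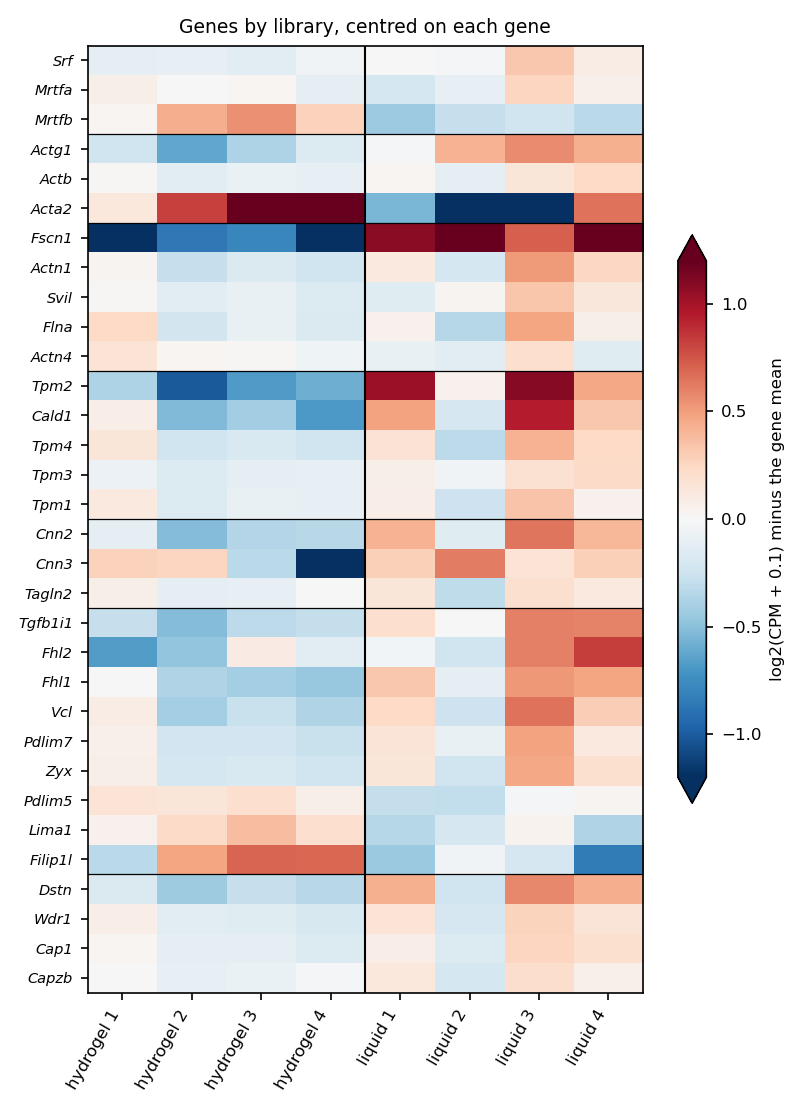
Colour gives log2(CPM + 0.1) minus the mean of the gene over the 8 libraries, with red above and blue below, and colours saturate at the ends of the bar. Rows are the 32 tested genes in the order of their roles and columns the 8 libraries; hydrogel 1 and liquid 2 are the palest columns of their groups for many targets, such as Cnn2, Fhl1 and Dstn.

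The regulators did not move together: Mrtfb rose, while Srf and Mrtfa did not pass the test. Srf (ENSMUSG00000015605) stood at 143, 144.5, 141 and 150.1 CPM in hydrogel libraries 1 to 4 and at 154, 153, 194 and 164 CPM in liquid libraries 1 to 4. The hydrogel values all lay below the liquid ones, but the highest hydrogel and lowest liquid libraries were close. The log2 change was -0.20 ± 0.08 (SE; edgeR adjusted p = 0.0904), and Srf was called lower with upper-quartile scaling and without liquid 2. Mrtfa (ENSMUSG00000042292), the more abundant cofactor per kilobase of exon, gave 260.1, 249.5, 253 and 229 CPM in hydrogel and 215, 232, 297 and 259 CPM in liquid. The groups overlapped fully, with a log2 change of -0.02 ± 0.10 (edgeR adjusted p = 0.914) and an interval of 2 SE from -0.22 to 0.18; its sign turned to 0.05 with library totals alone.

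Mrtfb (ENSMUSG00000009569), the second cofactor, gave 26.5, 35.3, 38 and 31.5 CPM in hydrogel and 19.3, 21.4, 22.1 and 20.8 CPM in liquid. Every hydrogel library lay above every liquid one, and hydrogel 1 was nearest to the liquid group. Mrtfb was 1.57-fold higher in hydrogel (log2 change 0.65 ± 0.11; edgeR adjusted p = 0.00236), and the call held with any single library left out (largest adjusted p 0.0105). With the macrophage covariate the log2 change was 0.24 (adjusted p = 0.678). Per kilobase, Mrtfa stood at 41.0 CPM in liquid and 40.5 in hydrogel, and Mrtfb at 2.32 and 3.65. The log2 ratio of Mrtfa to Mrtfb was 3.57 ± 0.15 in liquid (SD, n = 4) and 2.93 ± 0.25 in hydrogel (SD, n = 4). The 2 groups of ratios did not overlap (exact two-sided permutation p = 0.0286, the smallest that 4 against 4 libraries can give; 0.0571 after adjustment over 8 gene pairs), so the difference did not pass 0.05 after adjustment.

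Among the actins, the low-count gene Actg1 fell, and Actb, by far the most abundant member per kilobase, did not pass the test. Actb, the main non-muscle actin, gave 7170, 6480, 6692 and 6620 CPM in hydrogel and 7181, 6539, 7810 and 8358 CPM in liquid. The groups overlapped, since liquid 2 lay within the hydrogel range. The log2 change was -0.15 ± 0.13 (edgeR adjusted p = 0.441), with an interval of 2 SE from -0.42 to 0.12. Per kilobase, Actb stood at 2789 CPM in liquid and 2516 in hydrogel, and the next member, Flna, at 810.3 and 735.6.

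Actg1 (ENSMUSG00000062825), the other non-muscle actin, gave 7.83, 6.00, 7.15 and 8.25 CPM in hydrogel and 9.21, 12.4, 13.8 and 12.5 CPM in liquid. Every hydrogel library lay below every liquid one. Actg1 was 1.64-fold lower in hydrogel (log2 change -0.71 ± 0.15; edgeR adjusted p = 0.00673). Both its level and its change are uncertain, because 37.4% of the 50-base words in its annotated transcripts also occur in other annotated genes and the treatment of reads that match several places is not given in the sources used here. The log2 ratio of Actb to Actg1 was 9.29 ± 0.25 in liquid and 9.85 ± 0.17 in hydrogel (SD, n = 4 each), without overlap (exact two-sided permutation p = 0.0286, adjusted 0.0571).

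Acta2, the smooth muscle actin, gave 1.29, 2.16, 3.58 and 3.07 CPM in hydrogel and 0.770, 0.296, 0.176 and 1.90 CPM in liquid. Liquid 4 lay above hydrogel 1, so the groups overlapped. The log2 change was 1.67 ± 0.62 (edgeR adjusted p = 0.0699), 2.63 without liquid 4 and 1.31 without liquid 3, and it passed 0.05 without hydrogel 1, without liquid 4, with no low-count filter, with DESeq2 and with limma-voom. Of 14 fibroblast and smooth muscle markers, 10 had too few reads to test and none of the other 4 was called. Among the untested, Lum was at 0 in 7 of the 8 libraries and Myh11 reached at most 0.220 CPM. Cxcl12, also untested, was at 0.8025, 0, 0 and 1.19 CPM in liquid libraries 1 to 4 and reached 0.0625 CPM in hydrogel. Col1a1, tested, gave 3.05, 0.329, 0.396 and 3.595 CPM in liquid and 0.1825 to 1.23 CPM in hydrogel. Within liquid, both and Col1a2 were highest in liquid 4 and liquid 1, as Acta2 was. Pdgfrb was highest in liquid 2 and Mylk in liquid 3. The part of such cells in the level of Acta2 was not tested.

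The crosslinkers, which tie filaments into bundles and networks, had 1 called member of 5. Fscn1 (ENSMUSG00000029581) encodes fascin, which bundles parallel filaments. It gave 0.219, 0.687, 0.730 and 0.162 CPM in hydrogel and 2.92, 7.36, 2.24 and 5.84 CPM in liquid. All hydrogel libraries lay under 1 CPM and all liquid libraries above 2 CPM, and liquid 2 and liquid 4 were the highest. Fscn1 was 10.3-fold lower in hydrogel, from 638 reads in the 4 liquid libraries and 55 in the 4 hydrogel libraries (log2 change -3.36 ± 0.54; edgeR adjusted p = 0.00163). It is the only member still called with the macrophage covariate (log2 change -5.77; adjusted p = 0.0037). Dendritic cells are known to express fascin, and their markers went both ways. Of 16 tested, 9 were lower in hydrogel and 2 higher (Itgax and Cd74), and 5 were not called, with log2 changes from 0.59 for Ccl17 to 1.10 for H2-Aa. Ccr7 was at 1.70, 4.41, 1.496 and 3.38 CPM in liquid libraries 1 to 4 and at 0.0647 to 1.02 CPM in hydrogel. Ccl22 and Flt3 were likewise highest in liquid 2 and liquid 4. The other lower dendritic markers had a different order: Siglech, Ccr9, Cd209a and Bcl11a were highest in liquid 2 and liquid 1. Clec9a and Cacnb3 were highest in liquid 2 and liquid 3. Of 8 tested mast cell and basophil markers, 6 were lower and 0 higher, with a summed level of 64.7 to 183 CPM in hydrogel and 107 to 551.5 CPM in liquid. Fcer1a, the IgE receptor alpha chain, was at 2.05, 9.47, 0.902 and 4.996 CPM in liquid libraries 1 to 4, again highest in liquid 2 and liquid 4, and at 0.329 to 1.47 CPM in hydrogel. With the macrophage covariate, 9 of the dendritic and 7 of the mast cell and basophil markers were lower. The part of either cell type in the fall of Fscn1 was not tested.

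Flna, filamin A, which crosslinks filaments and anchors the platelet von Willebrand receptor, gave 8457, 6160, 6707 and 6336 CPM in hydrogel and 7404, 5638, 9919 and 7505 CPM in liquid. Groups overlapped, and the log2 change was -0.14 ± 0.19 (edgeR adjusted p = 0.625); it was 0.01 without liquid 3 and passed 0.05 as lower without both hydrogel 1 and liquid 2 (-0.35, adjusted p = 0.0251). Actn1, the alpha-actinin mutated in an inherited low platelet count, gave 833, 672, 722 and 692 CPM in hydrogel and 882, 706.5, 1160 and 966 CPM in liquid. Only liquid 2 lay within the hydrogel range, and the log2 change of -0.35 ± 0.14 did not pass (edgeR adjusted p = 0.0967). Actn4, its close relative, gave 804.5, 729, 725 and 690.2 CPM in hydrogel and 675, 657, 822 and 649 CPM in liquid. Liquid 1, 2 and 4 lay below the hydrogel range and liquid 3 above it, with a log2 change of 0.07 ± 0.10 (edgeR adjusted p = 0.616).

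The ratio of Actn1 to Actn4 separated the groups although neither gene was called. The log2 ratio was 0.39 ± 0.21 in liquid and -0.02 ± 0.07 in hydrogel (SD, n = 4 each; exact two-sided permutation p = 0.0286, adjusted 0.0571). Svil, supervillin, which links filaments to the membrane, gave 411, 372, 383 and 363 CPM in hydrogel and 368, 416, 513 and 445.5 CPM in liquid. Liquid 1 lay within the hydrogel range and the other 3 above it, and the log2 change was -0.19 ± 0.10 (edgeR adjusted p = 0.196).

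Tropomyosins coil along actin filaments and set which proteins can bind them, and caldesmon binds beside them. All 5 members of this group had a log2 change below 0, against 51.4% of all genes. Of the 5, 3 were called lower (60.0%, against 14.1% of all genes). With the macrophage covariate the log2 changes of Tpm1, Tpm2, Tpm4 and Cald1 were above 0, and none of the 5 was called. Tpm2 (ENSMUSG00000028464) gave 14.0, 8.94, 11.2 and 12.0 CPM in hydrogel and 36.8, 18.8, 38.7 and 25.0 CPM in liquid. Every hydrogel library lay below every liquid one, with liquid 2 the lowest of its group. Tpm2 was 2.59-fold lower in hydrogel (log2 change -1.37 ± 0.23; edgeR adjusted p = 0.00197), while with the macrophage covariate the log2 change was 0.09 (adjusted p = 0.915).

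Cald1 (ENSMUSG00000029761), caldesmon, gave 255, 167, 181 and 150.2 CPM in hydrogel and 339, 210.1, 466 and 302 CPM in liquid. The groups overlapped because hydrogel 1 lay above liquid 2. Cald1 was 1.75-fold lower (log2 change -0.80 ± 0.23; edgeR adjusted p = 0.0267), and the call held in 2 of 8 fits with 1 library left out, those without hydrogel 1 and without liquid 2; the largest adjusted p was 0.0784, without hydrogel 2. Tpm3 (ENSMUSG00000027940) gave 280.0, 263, 272 and 274 CPM in hydrogel and 309, 285, 334 and 344 CPM in liquid. Hydrogel libraries all lay below the liquid ones, by a small margin between hydrogel 1 and liquid 2. The change was 1.17-fold lower (log2 change -0.23 ± 0.07; edgeR adjusted p = 0.046), the closest to the threshold of all called members. It was lost in 7 of 8 fits with 1 library left out, and with DESeq2 size factors, library totals alone, no low-count filter and limma-voom. In addition, 23.2% of the 50-base words of Tpm3 occur in other annotated genes, most of them in Tpm3-rs7.

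Tpm4, the tropomyosin whose loss is known to lower platelet number, gave 1655, 1269, 1319 and 1271 CPM in hydrogel and 1688, 1210, 2009 and 1773 CPM in liquid. Liquid 2 was below all hydrogel libraries and the other 3 liquid libraries were above them. The log2 change was -0.28 ± 0.16 (edgeR adjusted p = 0.223), and Tpm4 was called lower without liquid 2. Tpm1 gave 614, 505, 530.3 and 528 CPM in hydrogel and 598, 476, 714 and 587 CPM in liquid. Its groups overlapped, and the log2 change was -0.13 ± 0.12 (edgeR adjusted p = 0.477). Per kilobase of exon, Tpm4 made up 82.9% ± 1.17 of the 4 tropomyosins in liquid and 82.4% ± 0.948 in hydrogel (SD, n = 4). Tpm2 made up 1.11% ± 0.224 in liquid and 0.522% ± 0.0603 in hydrogel, with no hydrogel share as high as a liquid one. These shares depend on the length used. Per kilobase of the longest transcript instead, Tpm1, Tpm2, Tpm3 and Tpm4 stood at 205.5, 13.7, 134 and 785 CPM in liquid. In hydrogel they stood at 188, 5.30, 115 and 648 CPM. The fall of Tpm2 therefore concerned a minor part of the tropomyosin mRNA.

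Calponins and transgelins are related proteins that bind along filaments and steady them. Cnn2 (ENSMUSG00000004665), the calponin of non-muscle cells, gave 624, 470.0, 526.5 and 534.5 CPM in hydrogel and 896, 606, 1052 and 887 CPM in liquid. Hydrogel 1 lay just above liquid 2, and the other libraries were separate. Cnn2 was 1.597-fold lower (log2 change -0.68 ± 0.16; edgeR adjusted p = 0.0106), a call that held with any 1 library left out. Tagln2, the transgelin of blood cells, gave 1274, 1118, 1130 and 1211 CPM in hydrogel and 1340, 982, 1381 and 1314 CPM in liquid. Liquid 1, 3 and 4 lay above the hydrogel range and liquid 2 below it, with a log2 change of -0.08 ± 0.12 (edgeR adjusted p = 0.634).

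Cnn3, a widely expressed calponin, and the smooth muscle forms Cnn1 and Tagln were close to absent. Cnn3 stayed between 0.0971 and 0.789 CPM over the 8 libraries (log2 change -0.60 ± 0.45; edgeR adjusted p = 0.345). Cnn1 had 1 read in the 4 hydrogel libraries and 18 in the 4 liquid libraries, and Tagln had 8 and 53. Tagln is uncertain for a second reason, since 67.9% of its annotated exon length overlaps exons of genes on the other strand, among them Pcsk7. Nexn, nexilin, a filament-binding protein of muscle, had 23 and 44 reads. None of these 3 was tested.

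The adhesion and LIM-domain adaptors, which join filaments to integrin sites and carry signals from them, held 3 of the 4 members that rose and 2 that fell. Of the 9 tested, 33.3% were higher and 22.2% lower, against 15.1% and 14.1% of all genes. Lima1 (ENSMUSG00000023022) encodes EPLIN, which crosslinks filaments and slows their turnover. It gave 31.0, 34.99, 38.6 and 34.4 CPM in hydrogel and 23.5, 25.8, 30.7 and 23.1 CPM in liquid. The groups did not overlap, although hydrogel 1 and liquid 3 nearly met. Lima1 was 1.34-fold higher (log2 change 0.43 ± 0.11; edgeR adjusted p = 0.0149), and the call held with any 1 library left out (largest adjusted p 0.0489).

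Pdlim5 (ENSMUSG00000028273), a PDZ and LIM protein that binds alpha-actinin, gave 163, 161, 167 and 153 CPM in hydrogel and 119, 118, 142.5 and 148 CPM in liquid. Its groups did not overlap, and the gap between hydrogel 4 and liquid 4 was narrow. Pdlim5 was 1.22-fold higher (log2 change 0.29 ± 0.09; edgeR adjusted p = 0.0319), but the call held only without liquid 3 or without liquid 4 among the 8 fits with 1 library left out, with a largest adjusted p of 0.0869 without hydrogel 3, and it was lost with upper-quartile scaling. Filip1l (ENSMUSG00000043336), filamin A interacting protein 1 like, gave 4.49, 7.87, 9.20 and 9.16 CPM in hydrogel and 4.11, 5.49, 4.89 and 3.12 CPM in liquid. Hydrogel 1 lay within the liquid range and the other 3 above it. Filip1l was 1.74-fold higher (log2 change 0.80 ± 0.25; edgeR adjusted p = 0.0366), a call kept only without hydrogel 1 or without liquid 2, with a largest adjusted p of 0.101 without hydrogel 3, and lost with limma-voom.

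Tgfb1i1 (ENSMUSG00000030782) encodes Hic-5, a paxillin-like adaptor of focal adhesions. It gave 184, 156, 179.9 and 183 CPM in hydrogel and 256, 223, 339 and 337 CPM in liquid. Every hydrogel library lay well below every liquid one. Tgfb1i1 was 1.65-fold lower (log2 change -0.72 ± 0.14; edgeR adjusted p = 0.00362), and the call held with any 1 library left out. Fhl1 (ENSMUSG00000023092), a protein of LIM domains alone, gave 287, 222, 216 and 208 CPM in hydrogel and 358, 265, 409 and 395 CPM in liquid. Hydrogel 1 lay above liquid 2, and the other 3 hydrogel libraries lay below all liquid ones. Fhl1 was 1.53-fold lower (log2 change -0.61 ± 0.15; edgeR adjusted p = 0.0119), and this call too held with any 1 library left out.

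Vcl, vinculin, which couples talin to filaments, gave 2442, 1727, 1913 and 1791 CPM in hydrogel and 2718, 1934, 3611 and 2823 CPM in liquid. Liquid 2 lay within the hydrogel range, and the other liquid libraries were above it. The log2 change was -0.49 ± 0.19 (edgeR adjusted p = 0.076); Vcl was called lower without hydrogel 1, without liquid 2, with no low-count filter and with DESeq2. Of its annotated exon length 25.5% overlaps exons of Ap3m1 on the other strand. Zyx, zyxin, which is recruited to strained filaments, gave 2612, 2151, 2181 and 2110 CPM in hydrogel and 2740, 2102, 3429 and 2830 CPM in liquid. Again only liquid 2 failed to exceed the hydrogel libraries, and the log2 change was -0.29 ± 0.15 (edgeR adjusted p = 0.18).

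Pdlim7, a relative of Pdlim5 found on stress fibres, gave 218, 179, 179 and 173.5 CPM in hydrogel and 232, 197, 291 and 226 CPM in liquid. Hydrogel 1 lay above liquid 2 and the other libraries were separate, with a log2 change of -0.34 ± 0.12 (edgeR adjusted p = 0.0619). The log2 ratio of Pdlim5 to Pdlim7 was -0.84 ± 0.20 in liquid and -0.21 ± 0.14 in hydrogel (SD, n = 4 each), without overlap (exact two-sided permutation p = 0.0286, adjusted 0.0571). Fhl2 stayed between 2.44 and 4.23 CPM in hydrogel and between 3.32 and 7.06 CPM in liquid, with a log2 change of -0.64 ± 0.27 (edgeR adjusted p = 0.103).

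Of the proteins of filament turnover, Dstn fell and the other 3 did not pass the test (25.0% called, against 29.3% of all genes). Dstn (ENSMUSG00000015932) encodes destrin, a relative of cofilin that severs filaments and releases monomers. It gave 291, 244.5, 271 and 260.2 CPM in hydrogel and 441, 278, 489.6 and 445 CPM in liquid. Liquid 2 was close to the hydrogel libraries and below hydrogel 1, while the other 3 liquid libraries stood apart from them. Dstn was 1.55-fold lower (log2 change -0.63 ± 0.15; edgeR adjusted p = 0.0128), and the call held with any 1 library left out (largest adjusted p 0.0446). Wdr1, the cofactor of cofilin in disassembly, gave 1141, 978, 976 and 942.5 CPM in hydrogel and 1206, 935.5, 1296 and 1202 CPM in liquid (log2 change -0.20 ± 0.12; edgeR adjusted p = 0.231). Liquid 2 was its lowest library of all.

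Cap1, which recharges actin monomers, gave 1430, 1310, 1298 and 1257 CPM in hydrogel and 1495, 1263, 1686 and 1612 CPM in liquid (log2 change -0.19 ± 0.11; edgeR adjusted p = 0.214). Capzb, the beta subunit of the capping protein of filament ends, gave 635, 592, 602 and 625 CPM in hydrogel and 693, 549, 736 and 660.1 CPM in liquid (log2 change -0.10 ± 0.10; edgeR adjusted p = 0.455). For both genes the liquid libraries other than liquid 2 lay above all hydrogel ones.

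**Figure D3:**
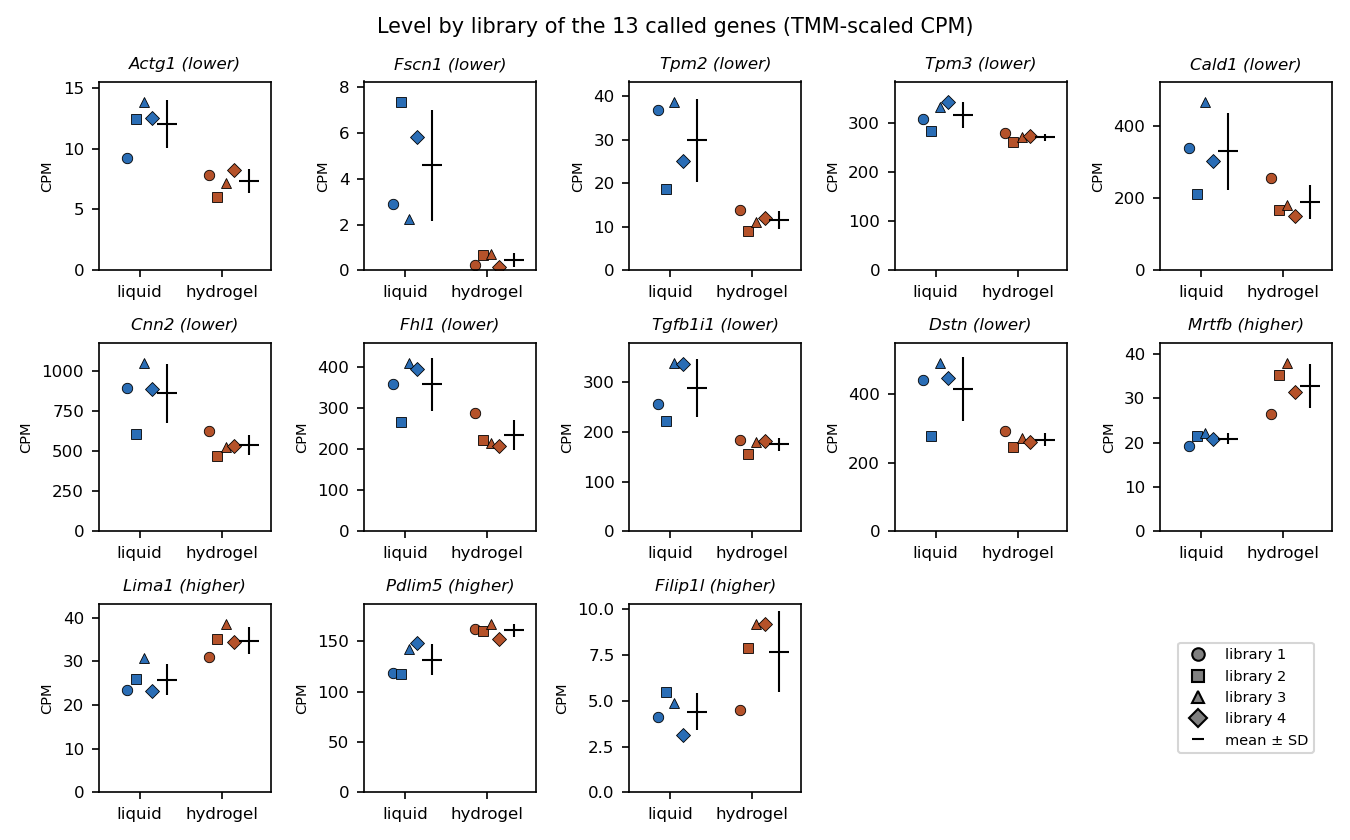
TMM-scaled CPM of the 13 called genes, 1 panel per gene on an axis from 0, with the 4 liquid libraries in blue and the 4 hydrogel libraries in orange; marker shape is the library number within its group, and the black bar is the mean ± SD. Fscn1, Tpm2, Tgfb1i1 and Actg1 have separate groups, while in Cald1, Cnn2, Fhl1 and Dstn liquid 2 lies below hydrogel 1.

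In liquid, the levels per kilobase of exon ran from 2789 CPM for Actb down to 0.0395 for Cnn1. After Actb came Flna at 810.3, Tpm4 at 758, Tagln2 at 602.5, Zyx at 515, Cap1 at 433, Cnn2 at 349.8 and Vcl at 338. In hydrogel the first 6 kept their order, and Vcl at 240.3 passed Cnn2 at 219. The called members were spread over this range: Cnn2 and Dstn were among the 10 highest in liquid, while Actg1, Lima1, Mrtfb, Fscn1 and Filip1l were among the 11 lowest. None of the 6 most abundant members was called, and their log2 changes ran from -0.29 for Zyx to -0.08 for Tagln2. Without both hydrogel 1 and liquid 2, those other than Actb were called lower. That fit called 40.6% of all genes. It leaves out the library of each group nearest to the other group in macrophage score. The order of levels depends on the length used. Per kilobase of the longest transcript, Zyx at 870.5 and Tagln2 at 791 CPM stood above Tpm4 at 785 in liquid.

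**Figure D4:**
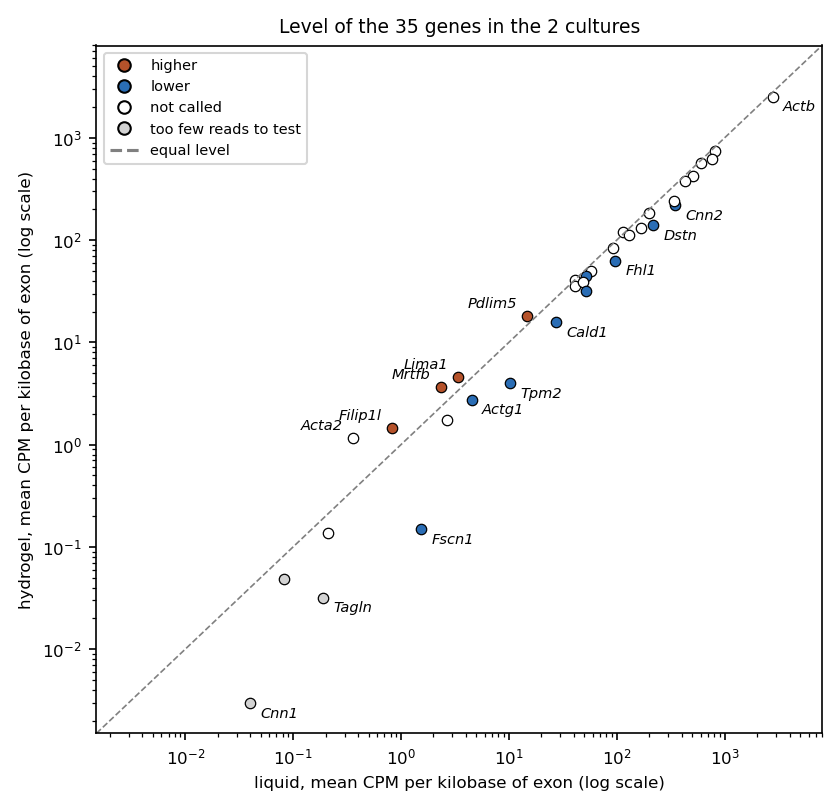
Mean CPM per kilobase of exon in liquid (horizontal, log scale) and hydrogel (vertical, log scale) for the 35 genes, with the dashed line at equal levels. Blue points below the line are the 9 genes called lower and orange points above it the 4 called higher; grey points had too few reads to test, and Actb is at the upper right.

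Members with a promoter match were called in both directions. Of the 8 members with an exact CArG box in the RefSeq window, 2 were higher (Lima1 and Filip1l), 3 lower (Actg1, Cnn2 and Fhl1) and 3 not called (Srf, Vcl and Fhl2). Of the 21 tested members whose window held no exact box, 2 were higher, 5 lower and 14 not called. The 3 tested members without a window had 0 higher, 1 lower (Tgfb1i1) and 2 not called. Over all genes 15.1% were higher and 14.1% lower. Whether the box bears on the change was not tested. Cnn2, which fell, and Lima1 and Filip1l, which rose, carry the same box in the runs printed earlier. With 1 G or C allowed among the central A or T bases and the outer C and G bases kept, 12 of 30 members (40.0%) and 11.3% of all genes held a match.

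**Figure D5:**
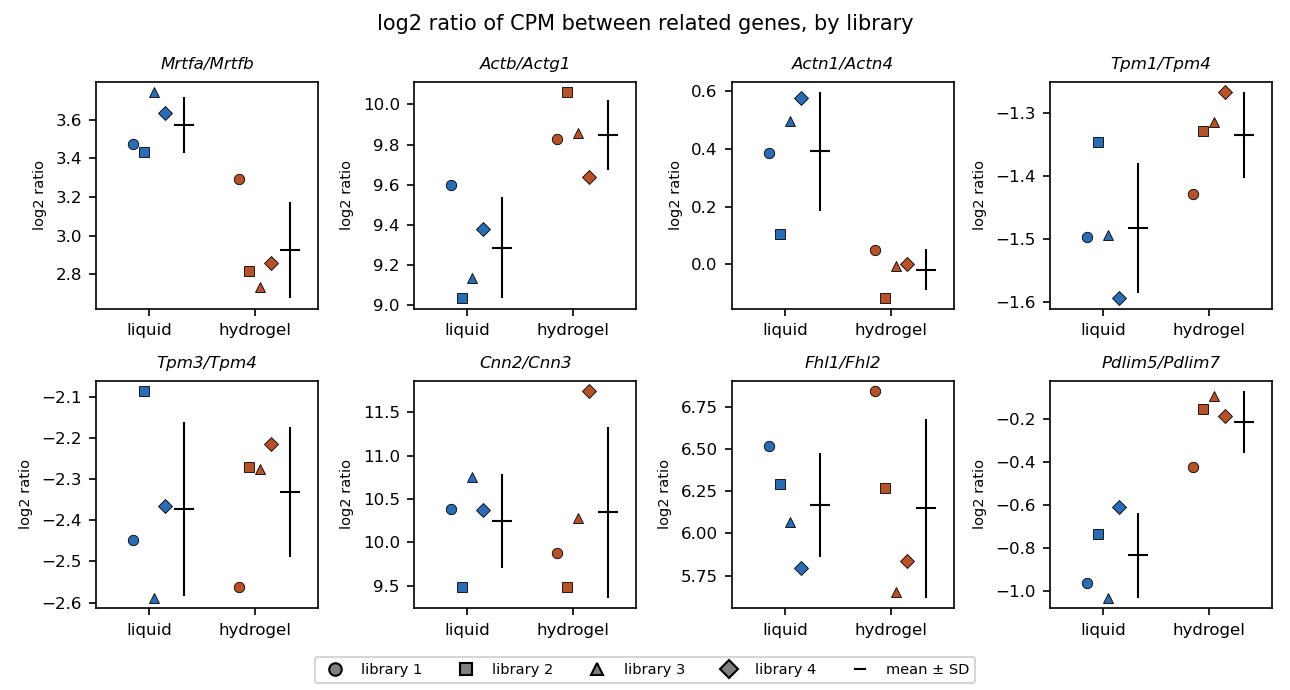
The log2 ratio of CPM for 8 pairs of related genes, 1 panel per pair with its own vertical range, with liquid libraries in blue, hydrogel libraries in orange, marker shape for the library number and mean ± SD in black. Mrtfa/Mrtfb and Actn1/Actn4 are lower and Actb/Actg1 and Pdlim5/Pdlim7 higher in all hydrogel libraries than in any liquid library; the other 4 pairs overlap.

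Ratios within related pairs were compared because a ratio is not touched by the scaling of a library. In 4 of 8 pairs the groups did not overlap, as given with the genes, and none passed 0.05 after adjustment. For Tpm1 to Tpm4 the log2 ratio differed by 0.15, hydrogel minus liquid (exact two-sided permutation p = 0.0571, adjusted 0.0914). The ratios of Tpm3 to Tpm4, Cnn2 to Cnn3 and Fhl1 to Fhl2 differed by 0.04, 0.10 and -0.02, and the 4 libraries of each kind overlapped (exact permutation adjusted p = 0.971 for each).

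Other genes of the pathway also moved in both directions, as did all genes tested (14.1% lower and 15.1% higher). Of 24 tested further MRTF and SRF targets of the cytoskeleton, 6 were lower (25.0%) and 3 higher (12.5%), with a median log2 change of -0.24. Mical2, an enzyme that oxidises actin and drives MRTF into the nucleus, was at 3.59 ± 0.573 CPM in hydrogel and 14.4 ± 1.91 in liquid (SD, n = 4), 4.01-fold lower (edgeR adjusted p = 0.000113). Myl9, the regulatory light chain of non-muscle myosin II and a known MRTF target in megakaryocytes, was at 82.3 ± 27.3 CPM in hydrogel and 221 ± 89.3 in liquid (log2 change -1.42; edgeR adjusted p = 0.00787). It stood at 0.79 with the macrophage covariate (adjusted p = 0.118). The formin Fhod1 was also lower (-0.54, edgeR adjusted p = 0.00591). With the macrophage covariate Mical2 was still called lower (log2 change -2.28, edgeR adjusted p = 0.00719). Fhod1 was not called with it (log2 change -0.02, edgeR adjusted p = 0.971). Epb41l2, Evl and Itga5 were the 3 that rose, with log2 changes of 0.56, 1.64 and 0.34 (edgeR adjusted p = 0.00414, 0.0105 and 0.0119). With the macrophage covariate these were -0.05, -0.94 and 0.05, so that Evl and Epb41l2 changed sign and none of the 3 was called.

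The immediate early genes that SRF serves with TCF had a median log2 change of 0.18. Of 14 tested, 4 were higher (28.6%, against 15.1% of all genes) and 2 lower (14.3%, against 14.1% of all genes). Atf3, a stress-induced transcription factor, was at 69.5 ± 21.8 CPM in hydrogel and 16.0 ± 5.06 in liquid (SD, n = 4; log2 change 2.11; edgeR adjusted p = 0.000749), with every hydrogel library above every liquid one. Mcl1, a survival factor, and Junb rose by 0.55 and 0.54 on the log2 scale (edgeR adjusted p = 0.000883 and 0.00215). Egr1 and Fosb fell by 0.92 and 1.44 (edgeR adjusted p = 0.0241 and 0.0316). Each of these 2 calls held in 5 of 8 fits with 1 library left out. Of the 14 tested genes, 3 had a log2 change below 0, against 51.4% of all genes. With the macrophage covariate 0 were called higher and 1 lower. The lower gene was Fos (log2 change -1.96, edgeR adjusted p = 0.0183), whose log2 change without the covariate was 1.03 and not called. The log2 changes of Atf3, Mcl1 and Junb were then 1.19, 0.475 and 0.12. Among the immediate early genes, upward calls thus outnumbered downward ones in the fit without the covariate. None of these calls, in either direction, was kept with it.

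Among 12 tested cofactors and controllers of SRF, 3 were lower (25.0%, against 14.1% of all genes) and 1 higher (8.33%, against 15.1%). Phactr1, a protein that competes with MRTF for actin monomers, gave 1.42, 1.19, 1.09 and 1.10 CPM in hydrogel and 6.16, 9.63, 8.01 and 10.8 CPM in liquid. The groups were far apart, 7.15-fold lower in hydrogel (log2 change -2.84 ± 0.21; edgeR adjusted p = 0.000108), and the call held with the macrophage covariate (log2 change -3.22; adjusted p = 0.0037). Elk4, a TCF, fell by 0.50 (edgeR adjusted p = 0.00488), and Arhgef2, a guanine nucleotide exchange factor, rose by 0.38 (edgeR adjusted p = 0.0061). Of 8 matrix, secreted and YAP-linked targets, Vim rose by 2.15 (edgeR adjusted p = 0.00165) and Amotl2 fell by 0.48 (edgeR adjusted p = 0.00564). That is 12.5% in each direction, close to the shares over all genes. Vim, vimentin, is abundant in macrophages, and its log2 change was -0.10 with the macrophage covariate.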

How the data were processed

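The authors deposited 1 table of unnormalized gene counts; 0 of its sample columns were left unused, and 2 of its lines, which name no gene, were dropped. The submitters' processing notes name bcl2fastq, STAR (2.7.10b), HTSeq (0.13.5) and build GRCm39. Which annotation, strand setting and rule for multiple matches were chosen is not given in the sources used here. Per the labels' protocols, 150 ng of total RNA went through polyA selection, a stranded kit and 13 PCR cycles. Library totals spanned 27012172 to 49281611 counts.

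After edgeR's filterByExpr and TMM scaling, genes were tested with its quasi-likelihood test (edgeR 4.0.16, R 4.3.3), culture as the only term, with Benjamini-Hochberg adjustment at 0.05. The SE is the log2 change divided by the square root of F. CPM are TMM-scaled; levels per kilobase use exon lengths from GENCODE, on GRCm38, which also gave the symbols of 26534 identifiers. Nothing says that cultures came from separate animals, so p-values measure the spread between cultures. Ratios between genes were compared by exact permutation over libraries (scipy 1.17.1).

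The members, the gene lists and the tests were chosen with earlier results of these data known. Named were all 35 members (full values for called members, regulators and members over 100 CPM) and, for each pathway list, up to 3 called genes per direction with the smallest adjusted p. The values of 1 gene that meets this rule are not reported here. Alternatives were DESeq2 size factors, upper-quartile scaling, library totals, other low-count filters, DESeq2 1.42.0, limma-voom (limma 3.58.1), a replicate block, an adjusted p of 0.01, each library left out, hydrogel 1 and liquid 2 both left out, and the macrophage score as a covariate. The test was tried on simulated counts with known changes; it missed the first bound set for recovering large changes, which was lowered after that result was seen.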

Additional observations from a re-analysis of the deposited data

Results flagged for a closer look

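In 8 of 70 groups of 4 libraries, 1 library lay far from the other 3 by the ratio of its gap to the range of the group (Dixon's ratio at the 95% level), and chance gives about 1 in 20 such groups. In hydrogel 1, 4 genes were high: Tpm4 at 1655 CPM (the others 1269 to 1319), Zyx at 2612 (2110 to 2181), Fhl1 at 287 (208 to 222) and Pdlim7 at 218 (173.5 to 179). Tgfb1i1 was low in hydrogel 2, at 156 CPM (179.9 to 184). Actn4 was high in liquid 3, at 822 CPM (649 to 675), and Tagln2 low in liquid 2, at 982 CPM (1314 to 1381). Cnn1 in hydrogel 4, at 0.0323 CPM, is a single read against 0 in the other 3 hydrogel libraries.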

How the results depend on the processing

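With 1 library left out, the genes called ran from 2700 (without hydrogel 2) to 4975 (without liquid 2), the members higher from 2 to 4 and lower from 7 to 18, and the pathway genes higher from 9 to 12 and lower from 7 to 20. At an adjusted p of 0.01 there were 2091 genes, 1 member higher and 4 lower, and 6 pathway genes lower. Without both hydrogel 1 and liquid 2, 5633 genes were called (40.6%), 20 members were lower, and 14 pathway genes were higher and 22 lower. With the macrophage covariate, 423 genes were called, 0 members higher and 1 lower, 2 pathway genes higher and 4 lower, and the median of the members was 0.29.

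Of 607 log2 changes of members under the alternatives, 503 kept their direction and side of the threshold, 45 lost the call, 36 gained it and 23 turned. Mrtfa turned to 0.049 with library totals alone and ran from -0.086 (without liquid 1) to 0.073 (without liquid 3); Flna ran from -0.26 (without liquid 2) to 0.012 (without liquid 3). With the macrophage covariate, 19 turned: Mrtfa 0.17, Actb 0.13, Actn1 0.40, Flna 0.83, Tpm1 0.55, Tpm2 0.09, Tpm4 0.66, Cald1 0.71, Cnn2 0.28, Tagln2 0.53, Vcl 0.60, Zyx 0.51, Fhl1 0.28, Pdlim7 0.33, Filip1l -0.31, Wdr1 0.44, Capzb 0.35, Dstn 0.30 and Cap1 0.27. The cause was not tested. The 80 alternative values of the 8 ratios moved by less than the spread between libraries (1 SD), and Tpm3 to Tpm4, Cnn2 to Cnn3 and Fhl1 to Fhl2 changed sign in some; with 1 library left out the exact test cannot go under 0.0571.

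With the replicate block, 4238 genes were called, 5 members were higher and 10 lower, with Acta2 and Fhl2 added, and no member lost its call. Deviations of same-numbered libraries correlated at 0.22, 0.33, -0.13 and 0.10. The liquid libraries that correlated best with hydrogel 1, 2, 3 and 4 were liquid 3, 2, 2 and 2. Only hydrogel 2 thus correlated best with its own number. These values cannot decide whether same-numbered cultures were paired, and the labels give only the shared number. Depth limits Cnn1, Tagln and Nexn, with at most 53 reads in a group, and all calls rest on 4 cultures of each kind.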
